A study of Mus musculus with 145 samples.

Results

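The genes of sterol and fatty acid synthesis were followed through 65 groups of mouse immune and stromal cells, each measured on Affymetrix arrays. The list was fixed by name: 18 enzymes of the path that makes cholesterol, 4 of its regulators, 8 enzymes of fatty acid synthesis, and 2 transporters that carry cholesterol out of the cell. Of the 32 genes listed, 31 had a probe set annotated to 1 symbol, out of 19752 such symbols on the array, and Acat2 was not analysed here. A gene with several probe sets (Idi1, Fdft1 and Acaca) was read from the set with the highest mean. Values are linear intensities after robust multi-array averaging (RMA), and differences are on the log2 scale. Each probe set has its own brightness, so a gene is compared between cells and not with another gene.

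Several groups enter the comparisons. Naive CD8 and CD4 T cells came from lymph nodes of male C57BL/6 mice of 6 weeks and were sorted as CD25-, CD62Lhi and CD44lo. They were collected after 1, 5, 24, 48 and 96 h of culture with beads that bind CD3 and CD28, and control arrays (CTR) carry no time in their titles, although their labels repeat the bead treatment. The 96 h groups hold 1 array each and the other T cell groups hold 2. Splenic CD4 T cells came from C57BL/6J mice and were naive, effector or memory cells, with 2 arrays each. Effector cells (CD44+, CD11a+, CD49d+) were taken 8 days after infection with LCMV (lymphocytic choriomeningitis virus). Memory cells had the same markers at day 30, and naive cells were CD44-. All 3 of these groups are labelled as 6 weeks old, whatever the day. Thymocytes positive for CD4 and CD8 were CD69+ or CD69- (6 weeks, 3 arrays each). Macrophages, all sorted as CD64+ and MertK+, were the F4/80hi cells of liver, the CD11c+ CD11b- alveolar cells of lung and the CD11c- CD11b+ cells of lung (C57BL/6, 6 weeks, 3 arrays each). Visceral fat gave macrophages of C57BL/6J mice and CD11b+ dendritic cells with MHCIIhi and CD11c+ (45 to 52 days, 3 arrays each, with no background named for the dendritic cells). Thymic epithelium of C57BL/6 mice of 8 weeks was titled CEChi, MEChi and MEClo (2 arrays each), and all of these share the marker label EpCAM+ Ly51+ MHCII+ Sca1+, so that only the titles set cortical apart from medullary cells. Lymphatic endothelial cells (LEC, gp38+ CD31+) and fibroblastic reticular cells (FRC, gp38+ CD140a+) came from subcutaneous lymph nodes of C57BL/6J mice of 6 weeks, with 2 arrays each. All of these mice were male. Nothing in the labels says that arrays of a group came from separate animals, so a p-value measures only the spread between arrays. That spread was also taken from related groups in the same fit. Among them were lymph node stroma titled as day 6 after adjuvant (CFA) and thymocytes titled e17.

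Cells make cholesterol from acetyl-CoA through mevalonate, farnesyl diphosphate, squalene and lanosterol. The transcription factors SREBP-2 and SREBP-1 (Srebf2 and Srebf1) are held in the endoplasmic reticulum by Insig proteins while sterols are plentiful, and are released to switch on these enzymes when sterols run low. Liver X receptors respond to oxysterols and raise Abca1 and Abcg1, which export cholesterol, so synthesis and export are usually controlled in opposite directions.

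The regions before the start sites of the members were read from RefSeq (GRCm38.p6), where 24 members had 29 promoters of 300 bases (250 before to 50 after the start). The motifs searched, on both strands, were the sterol regulatory element TCACNCCAC, at which SREBPs bind, the CCAAT box CCAAT, at which NF-Y binds, and the E-box CACGTG. The CCAAT box was found in 20 of 29 member promoters (69%) and in 37.4% of all 32851 promoters of that length. The E-box was in 5 of 29 (17.2%, against 7.15%), and the strict sterol element was in 1 of 29 (3.45%, against 1.24%), that of Hmgcs1. A match is only a match of letters. The stretches below are shown because their genes carry much of what follows: Hmgcs1 and Hsd17b7 among the sterol enzymes, Insig1 among the regulators and Fasn among the fatty acid enzymes. Positions count from 1 RefSeq start per gene. For Fasn (chr11:120805958-120825166) and Hsd17b7 (chr1:169949535-169969242) that start lies inside the outer bounds of the gene. The Fasn stretch is therefore wholly within those bounds, and the Hsd17b7 stretch partly. Each runs 5′ to 3′ on the strand of its gene, and capitals mark the motifs (a CCAAT box on the other strand reads ATTGG, and in Fasn a pair of boxes on opposite strands overlap).
Hmgcs1, chr13:119690106-119690318, + strand, bases -245 to -33 from the start: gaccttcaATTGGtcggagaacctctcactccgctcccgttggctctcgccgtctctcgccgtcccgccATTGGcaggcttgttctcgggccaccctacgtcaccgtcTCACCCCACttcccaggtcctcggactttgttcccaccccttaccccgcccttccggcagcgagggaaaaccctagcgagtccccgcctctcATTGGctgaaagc
Hsd17b7, chr1:169969206-169969378, - strand, bases -173 to -1: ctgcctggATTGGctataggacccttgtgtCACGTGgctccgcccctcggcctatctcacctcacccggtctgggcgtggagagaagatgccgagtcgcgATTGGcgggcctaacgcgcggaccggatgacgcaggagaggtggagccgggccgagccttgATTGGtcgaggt
Insig1, chr5:28071188-28071324, + strand, bases -224 to -88: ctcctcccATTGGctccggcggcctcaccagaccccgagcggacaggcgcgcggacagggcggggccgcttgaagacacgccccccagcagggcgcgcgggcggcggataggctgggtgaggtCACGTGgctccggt
Fasn, chr11:120824594-120824645, - strand, bases -98 to -47: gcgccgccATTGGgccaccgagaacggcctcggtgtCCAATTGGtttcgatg

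Over the 65 groups the mean log2 level of the 17 sterol enzymes was highest in CD4 T cells at 24 h (9.20), followed by fetal thymic gamma-delta T cells titled Vg2+ CD24hi e17 (9.01), CD4 T cells at 48 h (8.98) and CD8 T cells at 24 h (8.964). It was lowest in blood basophils (7.05, 1 array), neutrophils (7.17) and blood eosinophils (7.21). The 4 regulators had the same top group (9.67 in CD4 T cells at 24 h; under quantile scaling of all arrays CD4 T cells at 5 h came first) and were lowest in neutrophils (7.69). The 8 fatty acid enzymes peaked in the Vg2+ gamma-delta T cells (10.03) and were lowest in neutrophils (6.77). The pair of exporters ran another way, with alveolar (11.55) and liver F4/80hi macrophages (11.11) on top and the Vg4+ CD24lo fetal gamma-delta T cells (7.07), CD4 T cells (7.10) and CD8 T cells at 24 h (7.23) at the bottom. The e17 groups are labelled as 5 weeks old, against their titles. In these bulk samples fewer cells of a type and less RNA per cell cannot be told apart.

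**Figure D1:**
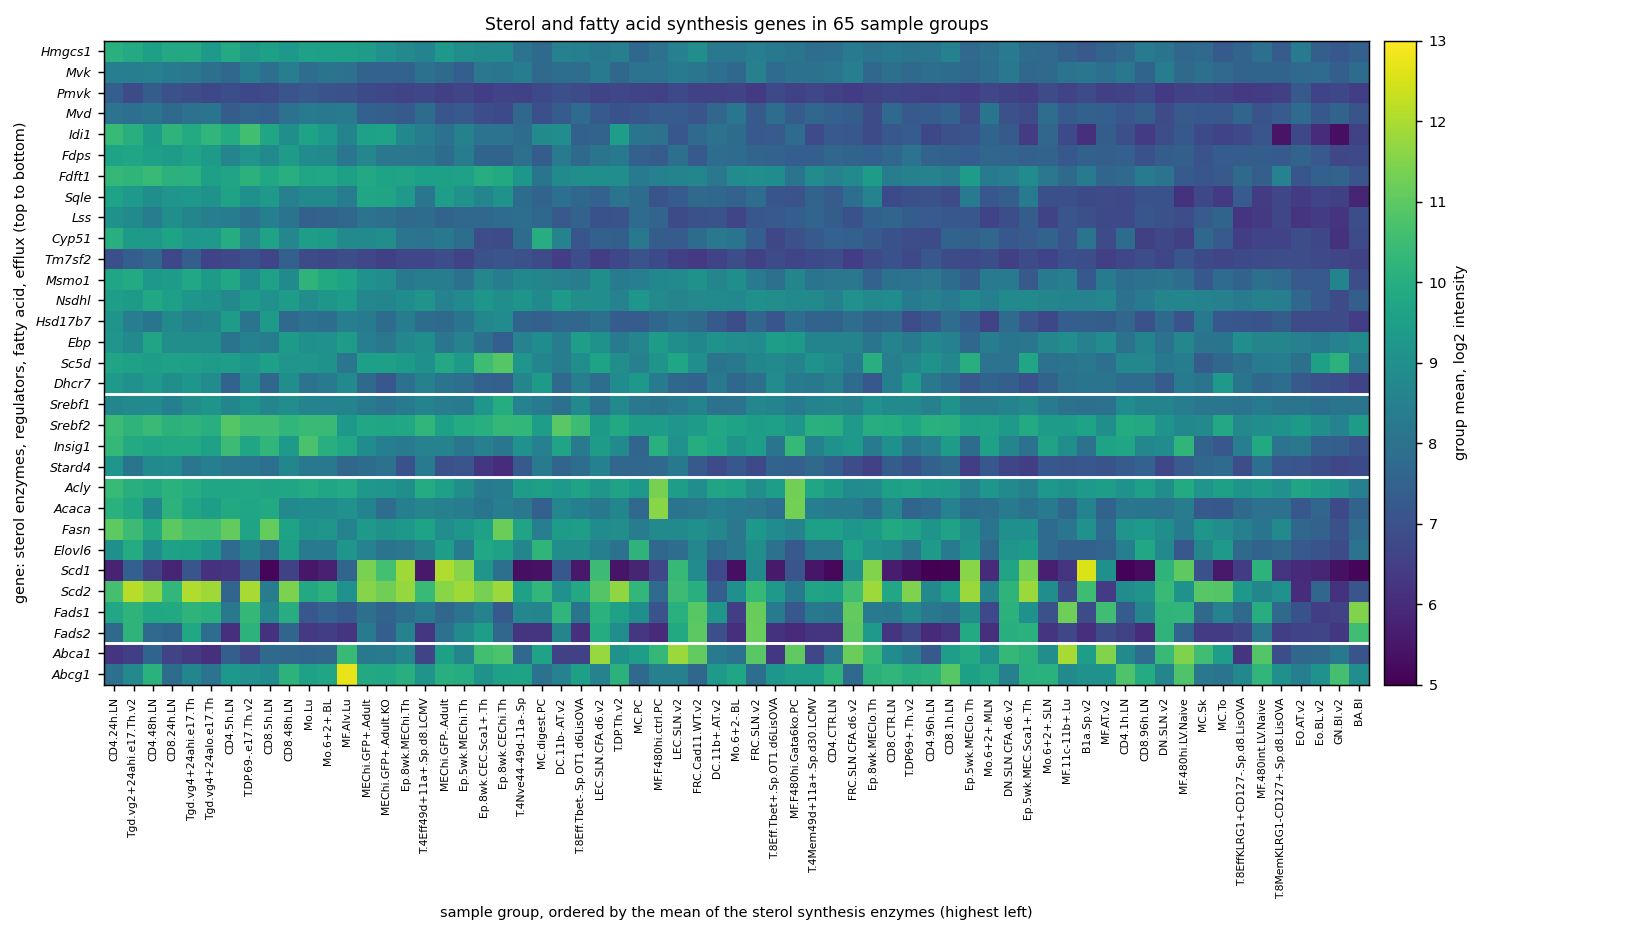
Mean log2 intensity of each of the 31 measured genes (rows, by role) in the 65 groups (columns, ordered by the mean of the sterol enzymes); the colour scale runs over log2 5 to 13. The brightest cells of Scd1, Fads1, Fads2, Abca1 and Abcg1 lie in different groups. Those of Scd1, Fads1, Fads2 and Abca1 are away from the left end, where the sterol enzymes are highest. That of Abcg1, in alveolar macrophages, is at place 13 of 65 from the left.

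Across group means the sterol enzymes went with the regulators (Pearson r = 0.82 over 65 groups) more closely than with the fatty acid enzymes (r = 0.49), and inversely with the exporters (r = -0.37). They followed Srebf2 (r = 0.69) more than Srebf1 (r = 0.43), and the proliferation markers Mki67, Top2a, Ccna2 and Cdk1 at r = 0.56. These groups share strains, tissues, the array platform and its normalization and are not independent, so the coefficients are descriptions. Abca1 and Abcg1, which export cholesterol to different acceptors, had group means with r = 0.022. The widest ranges of group means were those of the desaturases Scd1 (7.68 log2 units) and Scd2 (6.12), of Abca1 (5.85) and of the isomerase Idi1 (5.27). Pmvk and Tm7sf2 were dim, above the array median in 8 and 11 groups. Among 15499 other genes, the ones with group means most like the sterol enzyme mean were Stoml2 (r = 0.85), Psmd2 (0.83), Hdgf (0.82), Stip1 (0.81) and Aifm1 (0.81), over the same 65 groups.

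After 1 h of activation both exporters were higher than in controls in both cell types, while of the sterol enzymes 1 was higher and 2 were lower in CD8 T cells, and 0 were higher and 6 lower in CD4 T cells. Abcg1 read 1961 and 1920 in CD8 T cells at 1 h, against 1295 and 1178 in CD8 controls. In CD4 T cells it read 2070 and 1556 at 1 h, against 1226 and 1075 in CD4 controls. The 1 h arrays lay above the controls in both cell types, and groups did not overlap for 56.1% of probe sets in CD8 and 52.8% in CD4 (log2 change 0.65 ± 0.14 (SE), adjusted p = 0.0042 in CD8; 0.64 ± 0.14, adjusted p = 0.0034 in CD4; n = 2 per group here and below). Abca1 also rose in both, by 0.55 ± 0.13 (adjusted p = 0.0077) in CD8 and by 0.57 ± 0.13 (adjusted p = 0.0047) in CD4 T cells. In all, 3 members rose and 2 fell in CD8 T cells, where 5.02% of the 14411 probe sets tested were called higher and 9.48% lower (limma, Benjamini-Hochberg adjusted p under 0.05). In CD4 T cells 3 rose and 8 fell, where 6.38% were called higher and 13.8% lower. These counts are out of 30 members tested in each cell type, so a few calls move the share. The fallen CD4 members were above their background, and the other counts were too small to be set apart from theirs. With quantile scaling the share of all calls that were higher was 45% in place of 34.6% in CD8 and 43% in place of 31.7% in CD4 T cells, and the members split 4 higher and 2 lower in CD8 and 3 higher and 6 lower in CD4.

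All members that fell at 1 h were enzymes, as are most of the 31 measured. Dhcr7, which makes cholesterol in the last step, read 240 and 235 in CD8 T cells, against 344 and 354 in CD8 controls, a log2 change of -0.56 ± 0.13 (adjusted p = 0.011), and 239 and 206 in CD4 T cells, against 378 and 339 in CD4 controls, a change of -0.69 ± 0.13 (adjusted p = 0.0020). Nsdhl, part of the complex that removes methyl groups from lanosterol, fell in both. Fdft1, the squalene synthase, fell by 0.80 in CD4 T cells (adjusted p = 0.0011), as did Sqle, Lss, Ebp, Scd2 and Fads1. Cyp51 rose in CD8 and Insig1 in CD4 T cells. The counts at this time leaned on single arrays. In CD4 T cells, 5 members were called without CD4.1h array 2 and 7 without CTR array 1, in place of 11. The calls lost without CD4.1h array 2 were Lss, Sqle, Fads1, Scd2, Nsdhl and Ebp (adjusted p 0.13 to 0.32), those lost without CTR array 1 were Lss, Fads1, Insig1 and Nsdhl (0.075 to 0.14), and those lost without CTR array 2 were Sqle, Scd2 and Ebp (0.074 to 0.28). Insig1 was also lost without CD4.1h array 1 (0.084). In CD8 T cells, 1 member was called without CD8.1h array 1 or without CTR array 2 and 3 without either of the other arrays, in place of 5. Cyp51 and Dhcr7 were lost without CD8.1h array 2 (0.07 to 0.19), Abca1 and Cyp51 without CTR array 1 (0.066 to 0.21), Abca1, Cyp51, Dhcr7 and Nsdhl without CD8.1h array 1 (0.061 to 0.12) and Abcg1, Cyp51, Dhcr7 and Nsdhl without CTR array 2 (0.054 to 0.14). The CD8 call of Cyp51 was also lost without the filter (0.060) or with 32 added to each value (0.062), and the CD4 calls of Nsdhl (0.054) and Ebp (0.057) under quantile scaling.

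By 5 h the sterol enzymes had risen. In CD8 T cells 10 of the 17 rose and 1 fell, with a median log2 change of 1.07, against 0.00 over all probe sets tested, and in CD4 T cells 10 rose and 3 fell, with a median of 1.00 against 0.00. Over all members 14 rose and 5 fell in CD8 T cells (15.5% of probe sets called higher and 13.4% lower), and 15 rose and 6 fell in CD4 T cells (19.3% and 11.9%). Cyp51, the lanosterol demethylase, read 869 and 712 in CD8 T cells at 5 h, against 123 and 139 in CD8 controls, and 898 and 1077 in CD4 T cells, against 165 and 205 in CD4 controls. The 5 h arrays were all above the controls, where groups did not overlap for 59.1% of probe sets in CD8 and 60.7% in CD4, with changes of 2.59 ± 0.16 (adjusted p = 1.5e-08) in CD8 and 2.42 ± 0.16 (adjusted p = 3.1e-08) in CD4. Idi1 and Sqle, the squalene epoxidase, rose by 2.54 and 2.51 in CD8 and by 2.70 and 2.29 in CD4 T cells. Dhcr7 was still below the controls (-0.79 ± 0.13 in CD8 and -0.91 ± 0.13 in CD4, adjusted p = 3.3e-04 and 7.7e-05), and Mvk, the mevalonate kinase, and Ebp, a sterol isomerase, fell in CD4 T cells. Mvk lost its call without CD4.5h array 1, CTR array 1 or CTR array 2, Ebp without CD4.5h array 1, CD4.5h array 2 or CTR array 2, and Stard4 without CD4.5h array 1 or CTR array 1 (adjusted p 0.053 to 0.33), and Ebp also without the filter (0.050).

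The regulators, the fatty acid enzymes and the exporters each moved in a way of their own at 5 h. Srebf2 read 1508 and 1499 in CD8 T cells, against 963 and 1010 in CD8 controls, and 1924 and 1878 in CD4 T cells, against 1160 and 910 in CD4 controls. It rose in both (0.61 ± 0.14, adjusted p = 0.0027, and 0.89 ± 0.14, adjusted p = 1.0e-04), whereas Srebf1 changed by -0.18 ± 0.13 in CD8 and 0.04 ± 0.13 in CD4 and did not pass the test. Insig1 rose by 1.25 in CD8 and 1.42 in CD4 T cells. Fasn, the fatty acid synthase, read 2078 and 2304 in CD8 T cells, against 899 and 949 in CD8 controls, and 2329 and 2038 in CD4 T cells, against 833 and 646 in CD4 controls. Fasn and Acaca, the acetyl-CoA carboxylase ahead of it, rose together (1.24 and 1.15 in CD8, 1.57 and 1.52 in CD4). The desaturase Scd2 did the opposite. It read 299 and 366 in CD8 T cells, against 767 and 969 in CD8 controls, and 167 and 229 in CD4 T cells, against 732 and 783 in CD4 controls, a change of -1.38 ± 0.18 (adjusted p = 3.4e-05) and of -1.95 ± 0.18 (adjusted p = 8.3e-07). Elovl6, which lengthens palmitate, fell in CD8 T cells (-0.93 ± 0.23, adjusted p = 0.0052, and adjusted p = 0.055 without CTR array 2). Both exporters had fallen below the controls, with changes of -1.39 in CD8 and -0.88 in CD4 T cells for Abcg1 and of -1.14 and -0.80 for Abca1.

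**Figure D2:**
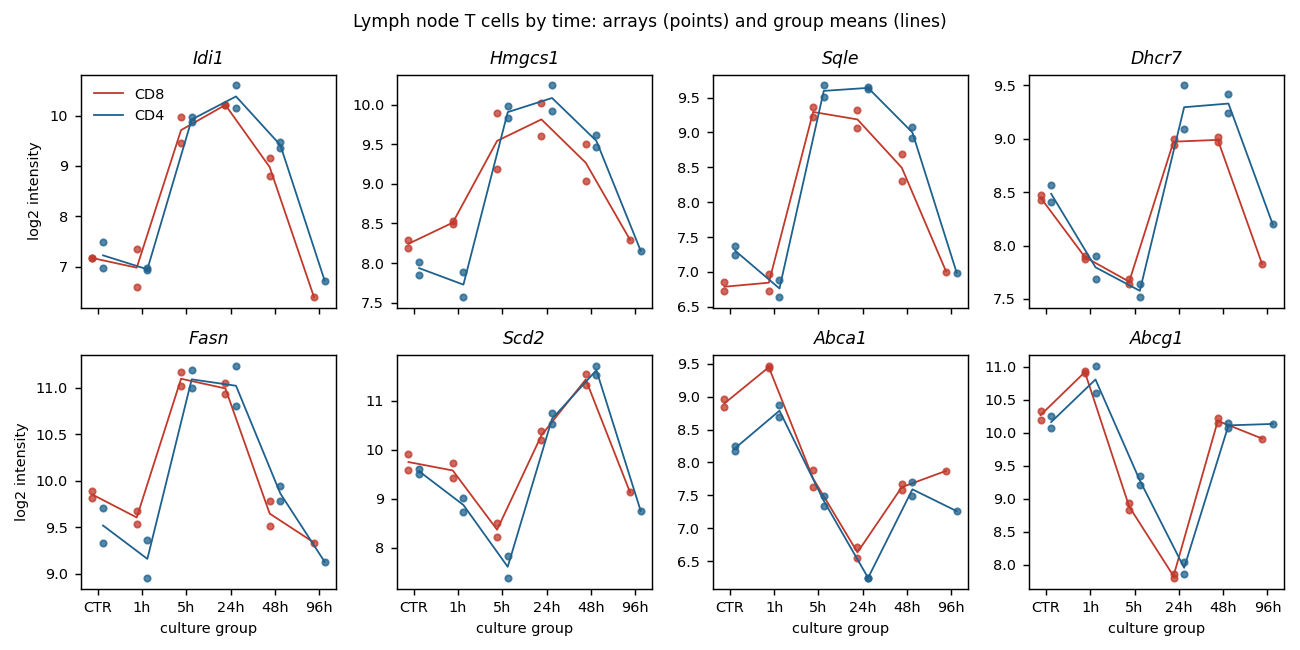
Log2 intensity of 8 genes in CD8 (red) and CD4 T cells (blue) in the control and at 1, 5, 24, 48 and 96 h of culture with beads; points are arrays and lines join group means. Idi1, Hmgcs1 and Sqle are high at 5 and 24 h, Dhcr7 and Scd2 are low at 5 h and high at 24 and 48 h, and Abca1 and Abcg1 are lowest at 24 h.

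At 24 h nearly the whole path was up. Of the 17 sterol enzymes 13 rose in CD8 and 15 in CD4 T cells, of the 4 regulators 2 rose and 1 fell in CD8 and 3 rose in CD4, and both exporters fell in both. All 7 fatty acid enzymes that passed the filter on dim probe sets rose in both cell types (Scd1, the eighth, was too dim to be tested). Over all members 22 rose and 3 fell in CD8 T cells, where 25.3% of probe sets were called higher and 18% lower, and 25 rose and 2 fell in CD4 T cells, where 33.1% were called higher and 20.2% lower. The median member changed by 0.83 in CD8 and by 1.07 in CD4 T cells, against -0.03 and 0.04 over all probe sets tested. Under quantile scaling the median of all probe sets in the CD4 comparison moved by -0.12 and the share of calls that were higher was 49.1% in place of 62.1%; 22 members then rose and 2 fell. All 4 proliferation markers rose as well, with summed intensities of 6491 to 7530 in CD8 T cells at 24 h against 315 to 330 in CD8 controls, and of 5030 to 6134 in CD4 T cells against 292 to 305 in CD4 controls. Their part in the result was not tested.

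Idi1 changed most. It read 1192 and 1180 in CD8 T cells at 24 h, against 144.7 and 143.3 in CD8 controls, and 1557 and 1141 in CD4 T cells, against 125 and 178 in CD4 controls. All 24 h arrays lay above all controls, where groups did not overlap for 70.7% of probe sets in CD8 and 74.7% in CD4 (3.04 ± 0.24, adjusted p = 5.7e-08, and 3.16 ± 0.24, adjusted p = 2.9e-08). Hmgcs1, which makes HMG-CoA at the head of the path, read 1043 and 777 in CD8 T cells, against 314 and 292 in CD8 controls, and 1215 and 970 in CD4 T cells, against 231 and 260 in CD4 controls. Dhcr7 had turned round: it read 512 and 492 in CD8 T cells, against 344 and 354 in CD8 controls, and 544 and 724 in CD4 T cells, against 378 and 339 in CD4 controls (0.52 ± 0.13, adjusted p = 0.0049, and 0.81 ± 0.13, adjusted p = 1.1e-04). Scd2 was likewise above the controls now, by 0.54 in CD8 and 1.07 in CD4 T cells, and Stard4, a carrier of sterol between membranes, rose by 1.51 and 1.80. Fads1, a desaturase of polyunsaturated fatty acids, read 818 and 1053 in CD8 T cells, against 257 and 337 in CD8 controls, and 794 and 965 in CD4 T cells, against 292 and 252 in CD4 controls. Fads1 and its neighbour in that path, Fads2, rose by 1.66 and 1.36 in CD8 and by 1.69 and 1.55 in CD4.

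The exporters reached their lowest point at this time. Abca1 read 106 and 93.7 in CD8 T cells, against 457 and 498 in CD8 controls, and 76.1 and 76.1 in CD4 T cells, against 305 and 290 in CD4 controls (-2.26 ± 0.13, adjusted p = 1.5e-09, and -1.97 ± 0.13, adjusted p = 5.1e-09). Abcg1 fell in both (-2.44 in CD8 and -2.21 in CD4 T cells). Among the regulators Srebf2 changed by 0.18 ± 0.14 (adjusted p = 0.30) in CD8 and by 0.47 ± 0.14 (adjusted p = 0.0083) in CD4 T cells, and these changes did not differ beyond their error (difference -0.29 ± 0.19, adjusted p = 0.58). With quantile scaling its CD4 change was 0.18 (adjusted p = 0.22). Srebf1 fell in CD8 T cells (-0.37 ± 0.13, adjusted p = 0.036). Some calls were lost without 1 array. In CD8 T cells these were Mvk (without CD8.24h array 1, CD8.24h array 2 or CTR array 2), Acly (CD8.24h array 1 or CTR array 1), and Srebf1, Scd2 and Elovl6 (CD8.24h array 2 or CTR array 1), at adjusted p of 0.07 to 0.27. In CD4 T cells they were Srebf2 and Mvd (CD4.24h array 2 or CTR array 2), Ebp (CD4.24h array 2 or CTR array 1) and Elovl6 (CD4.24h array 1), at 0.074 to 0.2. Mvk in CD8 (adjusted p = 0.15) and Mvd (0.053) and Ebp (0.17) in CD4 also lost their calls under quantile scaling, and Mvk (0.071) and Srebf1 (0.057) in CD8 without the filter.

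Other genes of these paths moved in both directions at 24 h. Of 11 other sterol genes measured 8 were bright enough to test, of which 3 fell in CD8 T cells, and 2 rose and 3 fell in CD4 T cells. Mylip, a ubiquitin ligase under the control of liver X receptors, fell (-2.11 in CD8 and -2.08 in CD4), as did the lysosomal lipase Lipa (-0.90 and -1.13) and the lysosomal cholesterol carrier Npc2 (-0.79 and -0.56). Scap, which escorts SREBPs, rose in CD4 (0.48), as did Acat1 (0.63). Of 18 other fatty acid genes measured 9 were bright enough to test, and 3 rose and 3 fell in each cell type. The lipid carrier Fabp5 rose by 2.53 in CD8 and 2.96 in CD4 and Hsd17b12, an enzyme of chain elongation, by 1.04 and 1.68. Acss2, which makes acetyl-CoA from acetate, fell (-1.53 and -1.27).

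**Figure D3:**
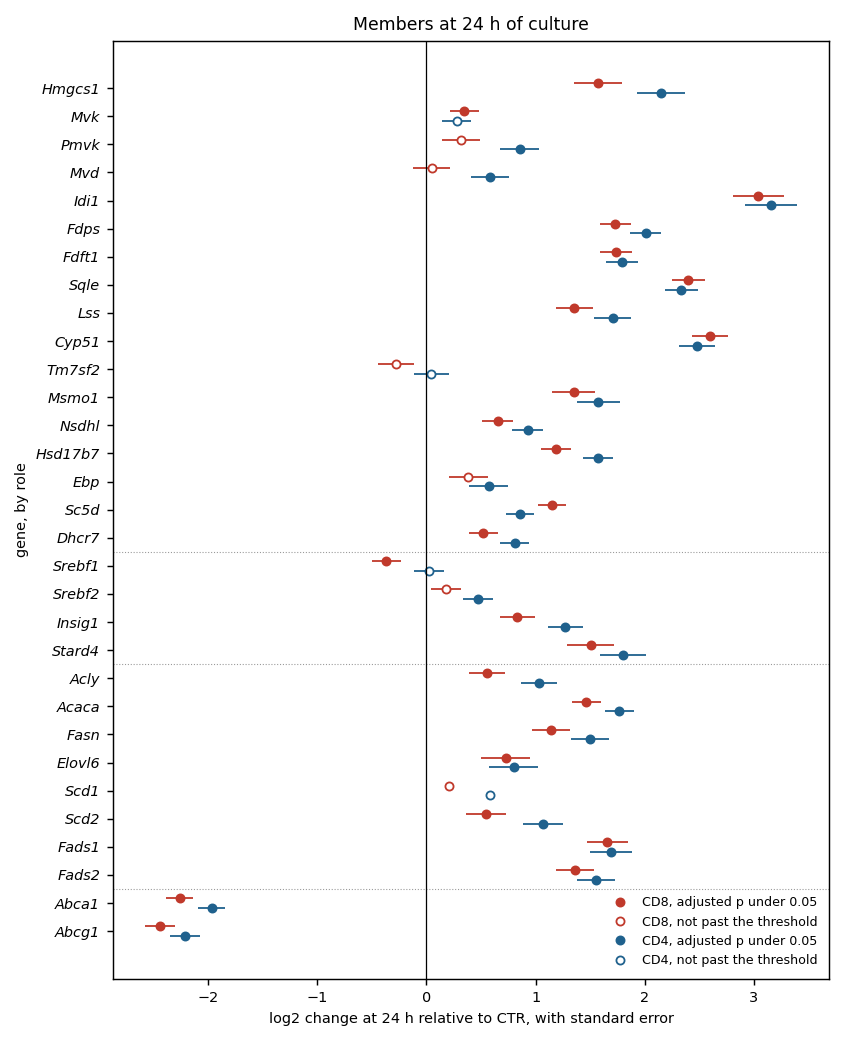
Log2 change (24 h minus control) of each measured gene, by role, in CD8 (upper of each pair) and CD4 T cells; bars are ± SE of the limma fit (n = 2 per group), filled points were called, and Scd1 has no error because it was not tested. Idi1 lies furthest to the right, and Abca1 and Abcg1 are the points furthest to the left.

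The CD8 change minus the CD4 change was tested directly. At 5 h the differences lay between -0.67 (Hmgcs1, SE 0.31) and 0.57 (Scd2, SE 0.26), and at 24 h between -0.58 and 0.29. At neither time was any of the 30 members tested called by limma (lowest adjusted p 0.50 at 5 h and 0.43 at 24 h), where 0.368% and 0.659% of probe sets were. At an unadjusted p under 0.05 there were 4 members at 5 h (Hmgcs1, Sc5d, Scd2 and Abcg1), where 7.65% of probe sets passed, and 2 at 24 h (Pmvk and Mvd), where 11.2% passed, and with trended, robust variances 0 were called at both times. Without CD4.5h array 1, 1 member was called at 5 h. With SEs of this size a difference of the scale of those seen cannot be separated from the spread between arrays.

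Between 24 and 48 h members moved in both directions. Over all members, 5 rose and 10 fell in CD8 T cells (14.9% of probe sets called higher and 17.9% lower) and 5 rose and 9 fell in CD4 T cells (15.6% and 17.7%). Fasn read 730 and 880 in CD8 T cells at 48 h, against 1956 and 2119 at 24 h, and 877 and 988 in CD4 T cells at 48 h, against 1791 and 2408 at 24 h. Fasn and Acaca fell in both, with changes of -1.35 and -1.33 in CD8 and of -1.16 and -1.37 in CD4. Idi1, Sqle, Lss, Cyp51 and Hsd17b7 also fell in both, with a change in Hsd17b7 of -1.08 ± 0.14 (adjusted p = 2.1e-05) in CD8 and -1.04 ± 0.14 (adjusted p = 3.1e-05) in CD4. Scd2 went on rising, and read 2554 and 3011 in CD8 T cells at 48 h, against 1179 and 1342 at 24 h, and 2975 and 3360 in CD4 T cells at 48 h, against 1468 and 1720 at 24 h (1.14 ± 0.18, adjusted p = 1.7e-04, and 0.99 ± 0.18, adjusted p = 5.6e-04). Abcg1 rose by 2.35 in CD8 and 2.16 in CD4, and Abca1 by 0.99 and 1.34. The summed proliferation markers were 10135 to 10386 in CD8 T cells at 48 h against 6491 to 7530 at 24 h (2 of 4 higher), and 9398 to 10597 in CD4 T cells at 48 h against 5030 to 6134 at 24 h (3 of 4 higher). In CD8 T cells 1 of 3 B cell markers was higher too (sums of 736 and 801 at 48 h, both above the 24 h arrays), and the part of these markers was not tested. Fdps, Fdft1, Dhcr7, Fads1 and Fads2 differed by at most 0.12 between the times in both cell types and did not pass the test. Calls lost without 1 array were, in CD8, Msmo1 and Sc5d (CD8.24h array 1, CD8.24h array 2 or CD8.48h array 2), Insig1 (CD8.24h array 1 or CD8.48h array 2) and Srebf1 (CD8.24h array 2 or CD8.48h array 2), at adjusted p of 0.06 to 0.36. In CD4 they were Ebp (CD4.24h array 1, CD4.48h array 1 or CD4.48h array 2), Acly (CD4.24h array 2 or CD4.48h array 1), Idi1 (CD4.24h array 1), Insig1 (CD4.24h array 2), Cyp51 (CD4.48h array 1) and Tm7sf2 (CD4.48h array 2), at 0.052 to 0.37. Without the filter Msmo1 in CD8 (0.055) and Acly (0.055) and Ebp (0.067) in CD4 were lost, and Msmo1 also under quantile scaling (0.052).

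At 96 h there was 1 array of each cell type and no test. The mean log2 level of the sterol enzymes was 7.52 in CD8 and 7.70 in CD4 T cells, against 7.78 and 7.81 in their controls. Idi1 read 84.0 in CD8 and 106 in CD4 T cells, both below their control arrays, and Abcg1 read 965 in CD8 and 1126 in CD4 T cells. Scd2 read 561 in CD8 and 432 in CD4 T cells, below every control array. How often other probe sets fell outside their control arrays at 96 h was not counted, so these positions have no background to be read against.

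In the response to LCMV few members moved. In effector CD4 T cells at day 8, 5 of the 28 members tested rose and 1 fell relative to naive cells, where 18.7% of 13332 probe sets were called higher and 13.5% lower, so the members moved no more often than other genes. Scd2 read 1264 and 1505 in effector cells, against 765 and 769 in naive cells (0.85 ± 0.13, adjusted p = 0.0013). Stard4 read 283 and 359, against 162 and 143 (1.06 ± 0.15, adjusted p = 8.7e-04), and Abca1 103 and 97.4, against 201 and 226 (-1.09 ± 0.12, adjusted p = 2.1e-04). Both risen genes lay above and Abca1 below the naive arrays without overlap, as was so for 62.7% of probe sets. Acly, Acaca and Hmgcs1 rose by 0.50, 0.47 and 0.56. The calls of Hmgcs1 and Acaca were lost without effector array 2 or naive array 1, and Acly without effector array 2 (adjusted p 0.07 to 0.27). The 4 proliferation markers rose, with sums of 4256 to 4342 in effector cells against 284 to 340 in naive cells, and under quantile scaling 5 members rose and 5 fell.

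In memory cells at day 30, Idi1 read 109 and 121, against 271 and 423 in effector cells (-1.56 ± 0.25, adjusted p = 0.0049). Hmgcs1, Cyp51 and Scd2 also fell (-0.75, -0.78 and -0.76), and these were the 4 members called, where 6.15% of probe sets were called lower and 2.45% higher. All 4 genes were below every effector array, and groups did not overlap for 60.7% of probe sets. Without 1 array at a time 450 to 650 probe sets were called in place of 1147. The members' count depended on single arrays too: 7 were called without effector array 1, and 1 without effector array 2, memory array 1 or memory array 2, where Hmgcs1, Cyp51 and Scd2 were lost (adjusted p 0.057 to 0.23). With quantile scaling 7 members fell, and the share of calls that were higher was 42.9% in place of 28.5%. The 4 proliferation markers were lower too (772 to 1017 in memory cells against 4256 to 4342 in effector cells). The effector arrays are shared by these comparisons.

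Thymocytes that had upregulated CD69 (a sign of T cell receptor signalling) were set against CD69- cells. Of the 16 sterol enzymes tested 6 were lower and 2 higher in CD69+ cells. The median change of the 17 measured was -0.21, against 0.02 over all probe sets tested. Of the 30 members tested 12 fell and 3 rose, where 17.8% of 13287 probe sets were called higher and 19.8% lower. Idi1 read 266, 116 and 132 in CD69+ cells, against 810, 673 and 677 in CD69- cells (-2.17 ± 0.23, adjusted p = 3.9e-06, n = 3 each). Sqle read 116, 129 and 125, against 243, 279 and 284 (-1.12 ± 0.10, adjusted p = 4.5e-07). All CD69+ arrays were below all CD69- arrays for both genes, and groups did not overlap for 44.9% of probe sets. Fads2 read 90.2, 106 and 128 in CD69+ cells, against 499, 510 and 442 in CD69- cells (-2.17 ± 0.12, adjusted p = 3.7e-09), and Fads1 (-0.82) and Acaca (-1.07) fell too. Insig1 (-0.69), Stard4 (-0.63) and Abca1 (-0.73) fell as well, so an exporter and enzymes of synthesis were lower together. Fasn ran against them at 631, 882 and 862 in CD69+ cells, against 480, 478 and 518 in CD69- cells (0.67 ± 0.12, adjusted p = 5.1e-04), and Dhcr7 rose by 0.42. The proliferation markers (4 of 4 lower, 1948 to 2411 in CD69+ cells against 14155 to 14745) and the immature thymocyte genes Rag1, Rag2, Dntt and Ptcra (4 of 4 lower, 3016 to 3262 against 14216 to 15532) moved with these genes, and their part was not tested. Lost without 1 array were Lss (CD69- array 1 or 3, CD69+ array 2 or 3), Hmgcs1 (CD69- array 1 or 2, CD69+ array 2 or 3), Fdft1 (CD69+ array 2 or 3) and Hsd17b7 (CD69+ array 2), at adjusted p of 0.05 to 0.14. Lss was also lost without the filter (0.061).

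Among macrophages of lung and liver, Abcg1 went with the sterol enzymes and Abca1 went against them. In alveolar macrophages 24 of 31 members were higher and 3 lower than in the CD11b+ macrophages of the same organ, where 32.2% of 14423 probe sets were called higher and 20.2% lower. Of the 17 sterol enzymes 14 were higher, with a median change of 0.93 against 0.06 over all probe sets tested. Hmgcs1 read 806, 674 and 755 in alveolar macrophages, against 129, 181 and 230 in CD11b+ macrophages (2.09 ± 0.25, adjusted p = 2.2e-06, n = 3 each). Fdft1 read 729, 827 and 703, against 198, 205 and 246 (1.80 ± 0.21, adjusted p = 1.6e-06). Both were well above every CD11b+ array. Among the fatty acid enzymes Scd2 (2.22), Elovl6 (1.74) and Acaca (1.41) were higher. The polyunsaturated desaturase Fads1 was the reverse, at 146, 157 and 159 in alveolar macrophages, against 2487, 2571 and 2186 in CD11b+ macrophages (-3.97 ± 0.21, adjusted p = 8.9e-11).

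The exporters took opposite sides in the lung. Abcg1 read 7238, 7616 and 5571 in alveolar macrophages, against 440, 430 and 467 in CD11b+ macrophages (3.92 ± 0.13, adjusted p = 3.0e-13). Abca1 read 1471, 1286 and 1248 in alveolar macrophages, against 3854, 3798 and 4184 in CD11b+ macrophages (-1.57 ± 0.10, adjusted p = 1.8e-09). Neither gene's groups overlapped, as was so for 59.3% of probe sets. Of 11 other sterol genes 6 were higher and 2 lower, and those that were lower were Apoe, an acceptor of cholesterol (-4.68), and Cyp27a1, which makes an oxysterol (-3.75). Of 13 other fatty acid genes tested 8 were higher and 2 lower. Pparg, a nuclear receptor of lipid handling, was higher by 4.68, Fabp4 by 3.95 and Fabp5 by 3.02. The sorted cells carried their own markers: 3 of 3 alveolar macrophage markers measured were higher (sums of 11991 to 14285 in alveolar against 183 to 208 in CD11b+ macrophages). Of the 4 lymphatic markers 2 were lower in alveolar macrophages (sums of 276 to 326 against 6695 to 8135). Of the 4 neutrophil markers 1 was higher and 1 lower (214 to 236 against 4970 to 5460). Lyve1 read 62.6 in alveolar and 7128 in CD11b+ macrophages, and Mmp9 read 81.3 in alveolar and 5097 in CD11b+ macrophages. From the same lists Prox1 read 104 in alveolar and 93.1 in CD11b+ macrophages, and S100a8 read 46.5 in alveolar and 31.9 in CD11b+ macrophages. Also lower in alveolar macrophages were 4 of 5 alveolar type 2 and airway markers (485 to 687 against 928 to 1072), with 0 higher. The same held for 2 of 3 B cell markers (158 to 165 against 563 to 695) and 1 of Cd4, Cd8a and Cd8b1 (204 to 216 against 2017 to 2642). The part of these markers was not tested. Without 1 array at a time, Pmvk was lost in each of 6 cases, Insig1 in 5 (all but CD11b+ array 2), Fasn in 5 (all but alveolar array 3) and Ebp in 2 (CD11b+ array 2, alveolar array 2), at adjusted p of 0.052 to 0.18. Quantile scaling also ended the calls of Fasn (0.18), Insig1 (0.14) and Ebp (0.12), trended variances those of Pmvk (0.051) and Insig1 (0.088), and the lack of a filter those of Fasn (0.052), Pmvk (0.063) and Insig1 (0.060).

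Liver F4/80hi macrophages, the Kupffer cell gate, had a lower sterol path than alveolar macrophages, with 19 members lower and 4 higher (29.8% of probe sets called lower and 23.8% higher), 14 of the 17 sterol enzymes among the lower ones. Sqle read 71.6, 61.5 and 83.0 in liver macrophages, against 332, 323 and 362 in alveolar macrophages (-2.24 ± 0.19, adjusted p = 3.8e-08). Cyp51 read 126, 64.4 and 96.1, against 472, 374 and 478 (-2.25 ± 0.22, adjusted p = 1.9e-07). Every liver array was below every alveolar one for both genes, and groups did not overlap for 64.6% of probe sets. Scd1, which makes oleate, read 2372, 1940 and 1875 in liver macrophages, against 188, 189 and 208 in alveolar macrophages (3.40 ± 0.17, adjusted p = 2.2e-11). Fads1 (3.01), Fads2 (1.40) and Abca1 (1.06) were the other members that were higher, and Abcg1 was lower (-1.93). Insig1 did not pass the test, with 1969 on liver array 1 and 893 and 1003 on the others, against 991, 822 and 793 in alveolar macrophages. All 4 Kupffer markers were higher (sums of 26915 to 27465 in liver against 233 to 266 in alveolar macrophages). Of the 5 hepatocyte markers 4 were higher and 1 lower (sums of 11864 to 13689 against 6731 to 8251), with Alb at 4830 against 38.7, and their part in the high Scd1 was not tested. Of 11 other sterol genes 5 were higher in liver, among them Apoe (4.59) and Nr1h3, the liver X receptor alpha gene (2.76), and 3 lower, and of 13 other fatty acid genes tested 2 were higher and 9 lower, among them Pparg (-3.50). The alveolar arrays serve both comparisons. Without liver array 2, Stard4, Pmvk and Dhcr7 were lost, Stard4 also without alveolar array 1 and Dhcr7 without alveolar array 2 (adjusted p 0.06 to 0.18), and Stard4 without the filter (0.056).

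**Figure D4:**
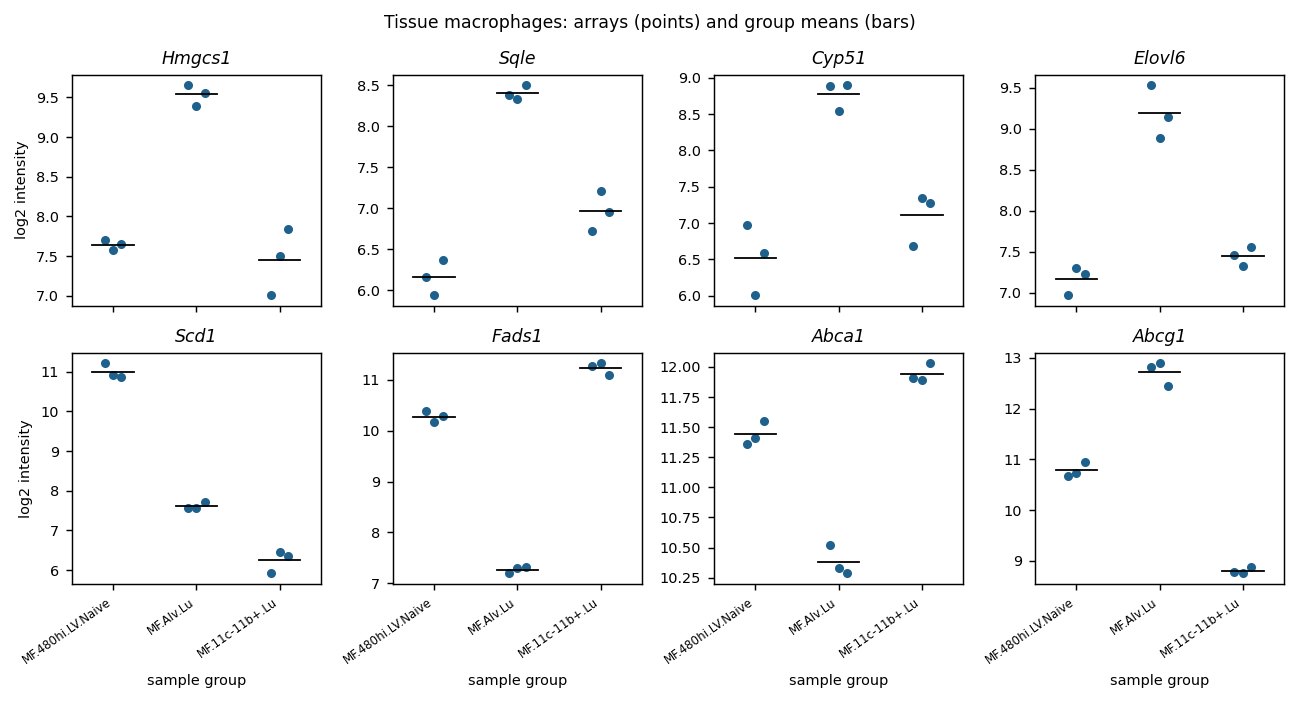
Log2 intensity of 8 genes on each array of liver F4/80hi, alveolar and CD11b+ lung macrophages, from left to right, with the group mean as a line. Hmgcs1, Sqle and Cyp51 are highest in alveolar macrophages, Scd1 in liver, Fads1 is low only in alveolar macrophages, and Abca1 and Abcg1 order the 3 groups differently.

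Macrophages of visceral fat had more Abca1, Scd1 and Fads1 than fat CD11b+ dendritic cells, and less Fasn, Acaca, Cyp51 and Srebf2. Of the 29 members tested 3 were higher and 4 lower, where 9.03% of 13977 probe sets were called higher and 6.55% lower. Abca1 read 2231, 2888 and 3622 in fat macrophages, against 331, 340 and 267 in dendritic cells (3.20 ± 0.22, adjusted p = 4.3e-05, n = 3 each). Scd1 read 439, 560 and 573, against 171, 121 and 67.8 (2.22 ± 0.30, adjusted p = 0.0018), and Fads1 was higher by 1.32. Every macrophage array was above every dendritic cell array for these 3 genes, and groups did not overlap for 31% of probe sets. Fasn read 259, 203 and 209 in fat macrophages, against 373, 446 and 425 in dendritic cells (-0.89 ± 0.16, adjusted p = 0.0063), and Cyp51 (-1.34), Acaca (-0.90) and Srebf2 (-0.81) were the other members that were lower. Macrophage array 1 read higher than the others for Cyp51 (182 against 86.8 and 99.6), Acaca (248 against 160 and 170) and Srebf2 (692 against 418 and 435), and without it 11 members were called in place of 7. Srebf2 was lost without macrophage array 3 or 4 or dendritic cell array 3 or 4, and Acaca without macrophage array 4 (adjusted p 0.072 to 0.14). Of 11 other sterol genes 5 were higher, led by Apoe (3.93), Cyp27a1 (2.65) and Mylip (1.92). All 4 macrophage markers were higher (10189 to 13524 in macrophages against 3778 to 5930 in dendritic cells). The lymphatic list (3825 to 6869 against 294 to 322), through Lyve1, and the neutrophil list (2172 to 3997 against 383 to 500) had higher sums in the macrophages, with Prox1 at 55.3 and S100a8 at 44.5 there. The part of these lists was not tested.

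In thymic epithelium members of each role differed between CEChi and MEChi cells, with 7 sterol enzymes (3 higher, 4 lower), 6 fatty acid enzymes (2 higher, 4 lower), 1 regulator and 1 exporter called. Of the 29 members tested 7 were higher and 8 lower in CEChi than in MEChi cells, where 25% of 15068 probe sets were called higher and 23% lower, so the count itself is near that of other genes. Fasn read 2153 and 2577 in CEChi cells, against 637 and 596 in MEChi cells (1.93 ± 0.17, adjusted p = 2.8e-06, n = 2 each). Srebf1, which drives fatty acid enzymes, read 807 and 1234, against 358 and 269 (1.69 ± 0.25, adjusted p = 2.0e-04). Elovl6 was higher by 1.40, Sc5d, a sterol desaturase, by 1.53 and Abca1 by 2.04, all with CEChi arrays above MEChi arrays, where groups did not overlap for 77.6% of probe sets. Scd1 was the reverse: 189 and 322 in CEChi cells, against 3761 and 3594 in MEChi cells (-3.90 ± 0.23, adjusted p = 1.1e-07), and Fads1 (-0.64), Fads2 (-0.93) and Acly (-0.60), which makes cytosolic acetyl-CoA, were lower with it. Among sterol enzymes Ebp (-1.32), Cyp51 (-1.29), Dhcr7 (-0.55) and Mvd (-0.47) were lower, and Mvk (0.63) and Tm7sf2 (0.41) higher. Of 14 other fatty acid genes tested 1 was higher, Cpt1a, the gate of fatty acid oxidation (2.05), and 6 were lower, among them Scd3, Acacb and Fabp4 (-2.55, -3.27 and -4.43).

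The titles held against the cortical gene Psmb11 (3505 in CEChi, 111 in MEChi cells) and the medullary gene Aire (137 in CEChi, 4074 in MEChi cells). CEChi arrays also held more T cell transcripts, with summed Cd4, Cd8a and Cd8b1 of 2751 to 2755 against 397 to 430 in MEChi arrays, and MEChi arrays more of the 5 hepatocyte markers (411 to 419 in CEChi against 5283 to 5530 in MEChi arrays), of the 5 markers of alveolar type 2 cells and airway epithelium (318 to 394 against 1647 to 2329) and of the 4 proliferation markers (1576 to 1630 against 3400 to 3976), and their part in these differences was not tested. Without 1 array, Dhcr7 was lost in each of 4 cases, Acly in 3 (all but CEChi array 2), Tm7sf2 without either MEChi array, Fads1 without CEChi array 1 or MEChi array 1 and Mvd without CEChi array 2 or MEChi array 1 (adjusted p 0.051 to 0.2).

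MEChi cells set against MEClo cells had 8 members higher and 5 lower (18.8% of probe sets called higher and 19.4% lower), and here all 8 that were higher were sterol enzymes. Idi1 read 378 and 470 in MEChi cells, against 99.0 and 130 in MEClo cells (1.89 ± 0.28, adjusted p = 2.6e-04). Cyp51 and Dhcr7 were higher by 0.87 and 0.80, as were Hsd17b7, Sqle, Msmo1, Fdps and Mvd. Abca1 read 488 and 356 in MEChi cells, against 1354 and 1313 in MEClo cells (-1.68 ± 0.18, adjusted p = 1.9e-05), and Elovl6, Srebf1, Fads2 and Sc5d were lower (-0.87, -0.77, -0.71 and -0.65). The MEChi arrays lay on 1 side of the MEClo arrays for each of these genes, as they did for 77% of probe sets. Outside the members, 9 of 14 other fatty acid genes tested were higher in MEChi cells and 2 lower. The median change of the 18 measured was 0.73, against -0.06 over all probe sets tested. Of 10 other sterol genes tested 2 were higher and 3 lower. The proliferation markers were higher in MEChi cells (4 of 4, 3400 to 3976 against 418 to 575), as were the hepatocyte markers (5 of 5, 5283 to 5530 against 608 to 736) and the markers of alveolar type 2 cells and airway epithelium (5 of 5, 1647 to 2329 against 478 to 596), and their part was not tested. The count was 7 without MEChi array 1, 5 without MEChi array 2, 6 without MEClo array 1 and 7 without MEClo array 2, in place of 13. Hsd17b7, Sqle, Fdps and Mvd were lost in each case, Srebf1 in all but that of MEChi array 1, Msmo1 in all but that of MEClo array 2, Elovl6 without MEChi array 2 or MEClo array 2, Fads2 without MEChi array 2 or MEClo array 1, and Dhcr7 without MEChi array 1 (adjusted p 0.051 to 0.25). Sqle was also lost without the filter (0.050). The MEChi arrays serve both thymic comparisons.

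**Figure D5:**
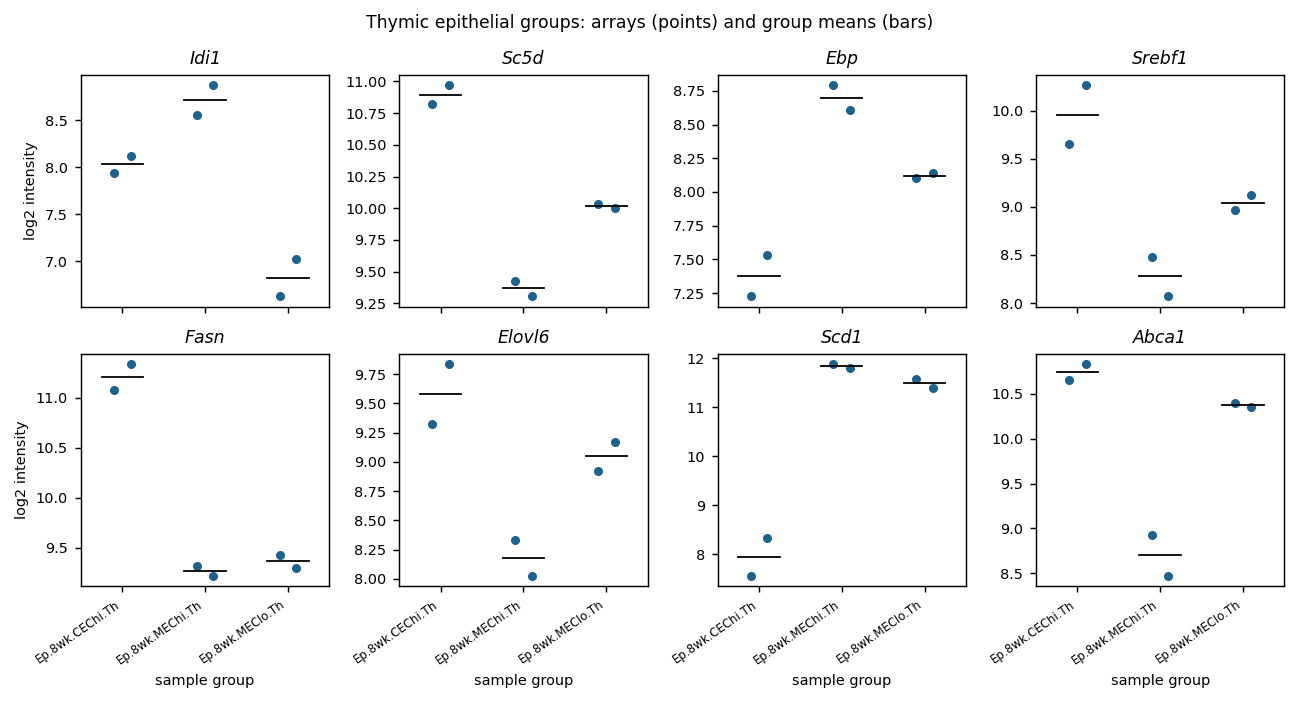
Log2 intensity of 8 genes on each array of CEChi, MEChi and MEClo thymic epithelium at 8 weeks, from left to right, with the group mean as a line (n = 2 each). Fasn, Srebf1, Elovl6 and Sc5d are highest in CEChi cells, Scd1 is high in both medullary groups, and Idi1 is higher in MEChi than in MEClo cells.

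In lymph node stroma 6 of the 29 members tested were higher and 5 lower in lymphatic endothelial cells than in fibroblastic reticular cells, where 16.3% of 14325 probe sets were called higher and 20% lower, which is near the members' share. Both exporters were higher: Abca1 read 3853 and 3272 in LEC, against 2072 and 1906 in FRC (0.84 ± 0.22, adjusted p = 0.012), and Abcg1 336 and 374, against 229 and 247 (0.58 ± 0.15, adjusted p = 0.012). The desaturases divided. Scd1 read 1174 and 1454 in LEC, against 359 and 576 in FRC (1.52 ± 0.27, adjusted p = 0.0011). Fads2 read 837 and 1045 in LEC, against 2276 and 2311 in FRC (-1.29 ± 0.16, adjusted p = 7.6e-05), and Fads1 (-1.09) and Elovl6 (-1.12) were lower too. None of these groups overlapped, as was so for 71.7% of probe sets. Stard4 (1.46), Sc5d (1.07) and Acly (0.51) were higher in LEC and Fasn (-0.46) and Sqle (-0.53) lower. The cells carried their defining genes, Prox1 in LEC (2835, against 67.6 in FRC) and Pdgfra in FRC (91.7 in LEC, against 4157 in FRC). Of 18 other fatty acid genes measured 13 were tested, and 6 were higher and 1 lower in LEC, with Cd36 (6.75), Fabp4 (5.20) and Pparg (3.35) among the higher ones and a median change over the 18 of -0.02. Of 11 other sterol genes 2 were higher and 5 lower, with Apoe (-2.77) among the lower ones. Without FRC array 2, 7 members were called in place of 11, with Acly, Fasn, Sqle and Abca1 lost. Sqle was lost without each of the 4 arrays in turn, Abca1 also without LEC array 1, Fasn without LEC array 1, Abcg1 without FRC array 1 or LEC array 2 and Acly without LEC array 2 (adjusted p 0.053 to 0.25). Sqle was also lost without the filter (0.056) and under quantile scaling (0.077).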

How the data were processed

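RNA of sorted mouse cells, extracted with TRIzol and biotin-labelled per the labels' protocols, was measured on Affymetrix arrays in 65 groups. The deposited values are linear intensities that the authors made with Affymetrix Power Tools and RMA, per the submitters' processing notes (no versions are named). Of 24922 probe sets 21425 had 1 symbol, 1399 several and 2098 none, and array medians ran over intensities of 111.74 to 146.70. The number of arrays limits the precision.

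The values were taken to log2 and fitted with limma 3.58.1 (R 4.3.3), with 1 mean per group, in 7 fits that each held related groups: lymph node T cells (22 arrays), LCMV T cells (6), thymocytes (9), lung and liver macrophages (15), fat (8), thymic epithelium (13) and stroma (11). Probe sets whose highest group mean lay under the median of a fit's values (the 50th percentile) were left out, the Benjamini-Hochberg adjustment ran over the rest, and calls were made at an adjusted p under 0.05. Group means of intensity are geometric. The script was tested on simulated data. Same-numbered arrays did not meet the rule for pairs (correlations of deviations of -0.63 to 0.68), so the fits have no block. The rule asked for at least 3 shared array numbers, each with a positive correlation above a set level. Comparisons that share 2 numbers could not meet it, whatever their correlation. Among these, the lymph node T cell comparisons had correlations of -0.02 to 0.68, so pairing there was left undecided. Where 3 numbers were shared, correlations were -0.26 to 0.18. All members are named, with other pathway genes where called, the 5 genes most like the sterol mean, and markers set beside a result. Members and lists were chosen with earlier results of these data known. Alternatives were 32 added before log2, no filter, quantile scaling, trended and robust variances, the replicate block, and leaving out each array.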

Additional observations from a re-analysis of the deposited data

Results flagged for a closer look

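Blood neutrophils (GN.Bl.v2, 4 arrays) gave both values that stood apart within a group. Fdps, the farnesyl diphosphate synthase, read 79.8 on replicate 7, the lowest of its group by a gap that was large for the group's range. Tm7sf2, a sterol reductase, read 126.2 on replicate 4, the highest of its group by such a gap. Over the 62 pairs of gene and group with 4 arrays that were examined, chance flags about 1 in 20.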

How the results depend on the processing

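No member change reversed under any alternative run. Of 258 called member changes, 1 lost its call with 32 added before log2, 2 with trended variances, 5 with the replicate block, 11 under quantile scaling and 14 without the filter; of 1175 refits without 1 array, 177 lost the call. The cause was not tested. In effector against naive CD4 T cells 10 members were called under quantile scaling (main 6), and in memory against effector cells 7 (main 4). With the replicate block, memory against effector cells gave 8 members and 2215 probe sets (main 4 and 1147), and fat macrophages against dendritic cells gave 958 probe sets (main 2178). The block also ended the calls of Lss in thymocytes (adjusted p = 0.052), Acaca (0.073) and Srebf2 (0.066) in fat, and Sqle and Fdps (0.055 each) in MEChi against MEClo cells; it ended no other member call. The highest minus the lowest group mean of the sterol enzymes was 1.96 under quantile scaling and 1.91 with 32 added (main 2.15), of the regulators 1.63 (with CD4 T cells at 5 h on top) and 1.81 (main 1.98), of the fatty acid enzymes 3.14 and 2.90 (main 3.26), and of the exporters 4.14 with 32 added (main 4.478).

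Without 1 array at a time, CD8 T cells at 1 h gave 1 to 3 members and 958 to 1375 probe sets, and CD4 T cells at 1 h 5 to 10 and 1397 to 2899. The CD8 minus CD4 change gave 0 to 1 members and 14 to 75 probe sets at 5 h, and 47 to 115 probe sets at 24 h. Effector against naive cells gave 4 to 8 members and 2573 to 4735 probe sets, and memory against effector cells 1 to 7 and 450 to 650. Fat macrophages gave 5 to 11 members and 1027 to 2281 probe sets, MEChi against MEClo cells 5 to 7 members and LEC against FRC 7 to 9. Where a group kept a lone array, its spread was taken from the rest of the fit. Pmvk, Tm7sf2, Scd1 and Fads2 lay under the array median in most groups, where intensity over background limits any change.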

Other observations

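Some of the highest levels of single members lay in groups outside these comparisons, and they are given as values with no test. Acaca and Acly, which feed carbon into fatty acid synthesis, were highest in F4/80hi ICAM2hi CD11bhi macrophages of the peritoneal cavity (9 weeks, mixed background). Acaca read 2414, 2262 and 3091 in macrophages titled Gata6ko, against 3117, 2923 and 3072 in their controls. Acly read 2345, 2494 and 2800 in Gata6ko macrophages, against 2950, 2321 and 2663 in their controls. The Gata6ko and control arrays overlapped for both genes, and the next group after them, CD8 T cells at 24 h, averaged 1150 for Acaca. The same control macrophages had the lowest Fads2 of all groups (61.6).

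Scd1 was highest on the only array of splenic B1a cells (6049), whose marker label reads as that of a thymocyte (CD4+ CD8+ CD69+). The desaturases Fads1 and Fads2 were high on the only array of blood basophils, at 2880 and 1491, the group with the lowest mean of the sterol enzymes. Elovl6 averaged 1183 in peritoneal mast cells, with arrays between 650 and 1847, and 2 of those 4 arrays carry blood as their source. Insig1 and Msmo1 were highest in lung monocytes, at 1658 and 1167.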
